A study of Mus musculus with 12 samples.

Results

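The axon guidance ligands and receptors measured here are the semaphorins with their plexin and neuropilin receptors, the ephrins with the Eph receptors, the Slits with the Robos, the netrins with Dcc and the Unc5 receptors, and Boc. They were chosen by gene symbol from a table of 21967 symbols in mouse brain slices. Of 70 symbols that matched these family names, 66 had a mean of at least 1 CPM (counts per 1000000 counted reads) over the 12 libraries and were kept. The 66 are 32 ligands, 33 receptors and Unc50, whose symbol matches but which is not a netrin receptor. Every family kept all its symbols except the class 3 semaphorins (6 of 7), the ephrin-As (4 of 5), the EphA receptors (8 of 9) and the symbols matched by name only (1 of 2). The 4 symbols left out were Epha1, Unc5cl, Sema3g and Efna4, with means of 0.80 CPM for Sema3g and 0.87 CPM for Efna4 just below the limit. Just above it were Sema3d with a mean of 1.63 CPM and Plxnb3 with 1.82 CPM.

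The libraries came from organotypic brain slices of mouse pups, prepared at postnatal day 6 and grown in vitro for 8 days. All slices carried 2 floxed Mef2c alleles (Mef2c fl/fl), the gene of a transcription factor of developing neurons, and they either also carried 1 copy of a CaMKii-α Cre transgene or had no Cre. Slices of each genotype received 100 µM picrotoxin with 100 µM 4-aminopyridine, or the vehicle, 1% DMSO with 1% water. The 4 groups, with 3 libraries each, are called Cre treated, Cre vehicle, flox treated and flox vehicle. The CaMKIIα promoter drives Cre in forebrain excitatory neurons, so interneurons and glia of these slices are not its targets, and floxed slices without Cre are the controls. Picrotoxin is a GABA-A receptor blocker and 4-aminopyridine a blocker of voltage-gated potassium channels, and the combination drives neurons to fire together. The duration of the treatment, the brain region and the animals behind each library are not known from the sources used here, so p-values measure only how far these libraries spread, which may be technical.

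Guidance cues are read by receptors on the growth cone, where they steer axons by attraction or repulsion, and many of them later act at synapses. Secreted class 3 semaphorins bind neuropilins, which pair with plexin-A receptors, while transmembrane semaphorins bind plexins directly. Ephrin-As are held in the membrane by a lipid anchor and bind mainly EphA receptors, whereas ephrin-Bs span the membrane and bind mainly EphB receptors. Both can signal back into the cell that carries them. Slits are secreted and repel axons through Robo receptors. Netrins attract through Dcc and repel through Unc5 receptors, and Boc is a coreceptor for Sonic hedgehog.

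The libraries held 82235674 to 140390406 reads, and 1 read stood for 0.00712 to 0.0122 CPM. Replicate libraries were less alike after treatment, with chi-squared over degrees of freedom at 55.4 to 223 between treated replicates, against 31.5 to 49.4 between vehicle replicates. The targeted gene went against the label. Mef2c averaged 2267 ± 161 CPM in Cre vehicle and 1002 ± 123.3 CPM in flox vehicle slices, and 2156 ± 188 CPM in Cre treated and 1079.9 ± 129.6 CPM in flox treated slices (SD, n = 3 each). It differed by 1.18 (SE 0.11, limma adjusted p = 2.64e-05) on the log2 scale in vehicle slices and by 1.00 (SE 0.11, limma adjusted p = 9.77e-05) after treatment. The table has 1 value a gene, so reads of the deleted part cannot be told apart from the rest of the transcript, and this value neither shows nor denies a deletion. The libraries are therefore called by their labels throughout, and exchanged labels would turn every genotype direction below. All 16 immediate early genes checked were higher after treatment in both genotypes, with Fos at 1076 ± 102 CPM in Cre treated against 24.1 ± 3.57 CPM in Cre vehicle slices, and 1609 ± 49.5 CPM in flox treated against 36.1 ± 19.02 CPM in flox vehicle slices (SD, n = 3 each). Npas4 differed by 6.35 and Arc by 4.50 on the log2 scale in Cre slices, and by 6.44 and 5.09 in flox slices.

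Levels of the 66 genes, given as CPM per kilobase of exon and averaged over the 12 libraries, spanned 0.189 to 98.6 with a median of 4.58. The median of their CPM was 33.8, against 25.9 for the 13048 genes tested. Plxnd1, the receptor of Sema3e, had the highest level by far, 98.6 CPM per kilobase with a library range of 82.7 to 112. It lies on chromosome 6, 115954811 to 115995005, minus strand (GRCm38, as are all gene positions here). Sema7a, a lipid-anchored semaphorin, followed with 57.9 CPM per kilobase and a library range of 38.4 to 90.8, and Sema6b, a transmembrane ligand of plexin-As, with 46.3 and a range of 36.6 to 52.6. The library ranges of Sema7a and Sema6b overlap, while that of Plxnd1 lies above almost all other values and shares only its lower end with the highest Sema7a library.

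The best expressed gene of each remaining family had a lower mean than these. Epha4, a receptor for both ephrin classes, stood at 36.1 CPM per kilobase, Ephb6, an Eph receptor without kinase activity, at 30.8, and the ligand Efnb3 at 30.3. Their library ranges, 27.0 to 45.5, 25.8 to 37.1 and 22.3 to 38.5 CPM per kilobase, overlap one another and that of Sema6b. Unc5a had 18.7 CPM per kilobase and Robo2 15.3, with overlapping ranges of 13.6 to 24.7 and 13.7 to 17.0, and Efna3 had 14.2. The secreted cues were lower. Slit3 led the Slits with 9.17 CPM per kilobase, Sema3c the class 3 semaphorins with 3.51 and Ntn4 the netrins with 3.21. Nrp2 had 2.97, Boc 5.71 and Dcc 0.667 CPM per kilobase. In all, 15 genes were above 10 CPM per kilobase and 5 under 1, namely Dcc, Sema3b, Epha2, Plxnb3 and Sema3d.

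**Figure D1:**
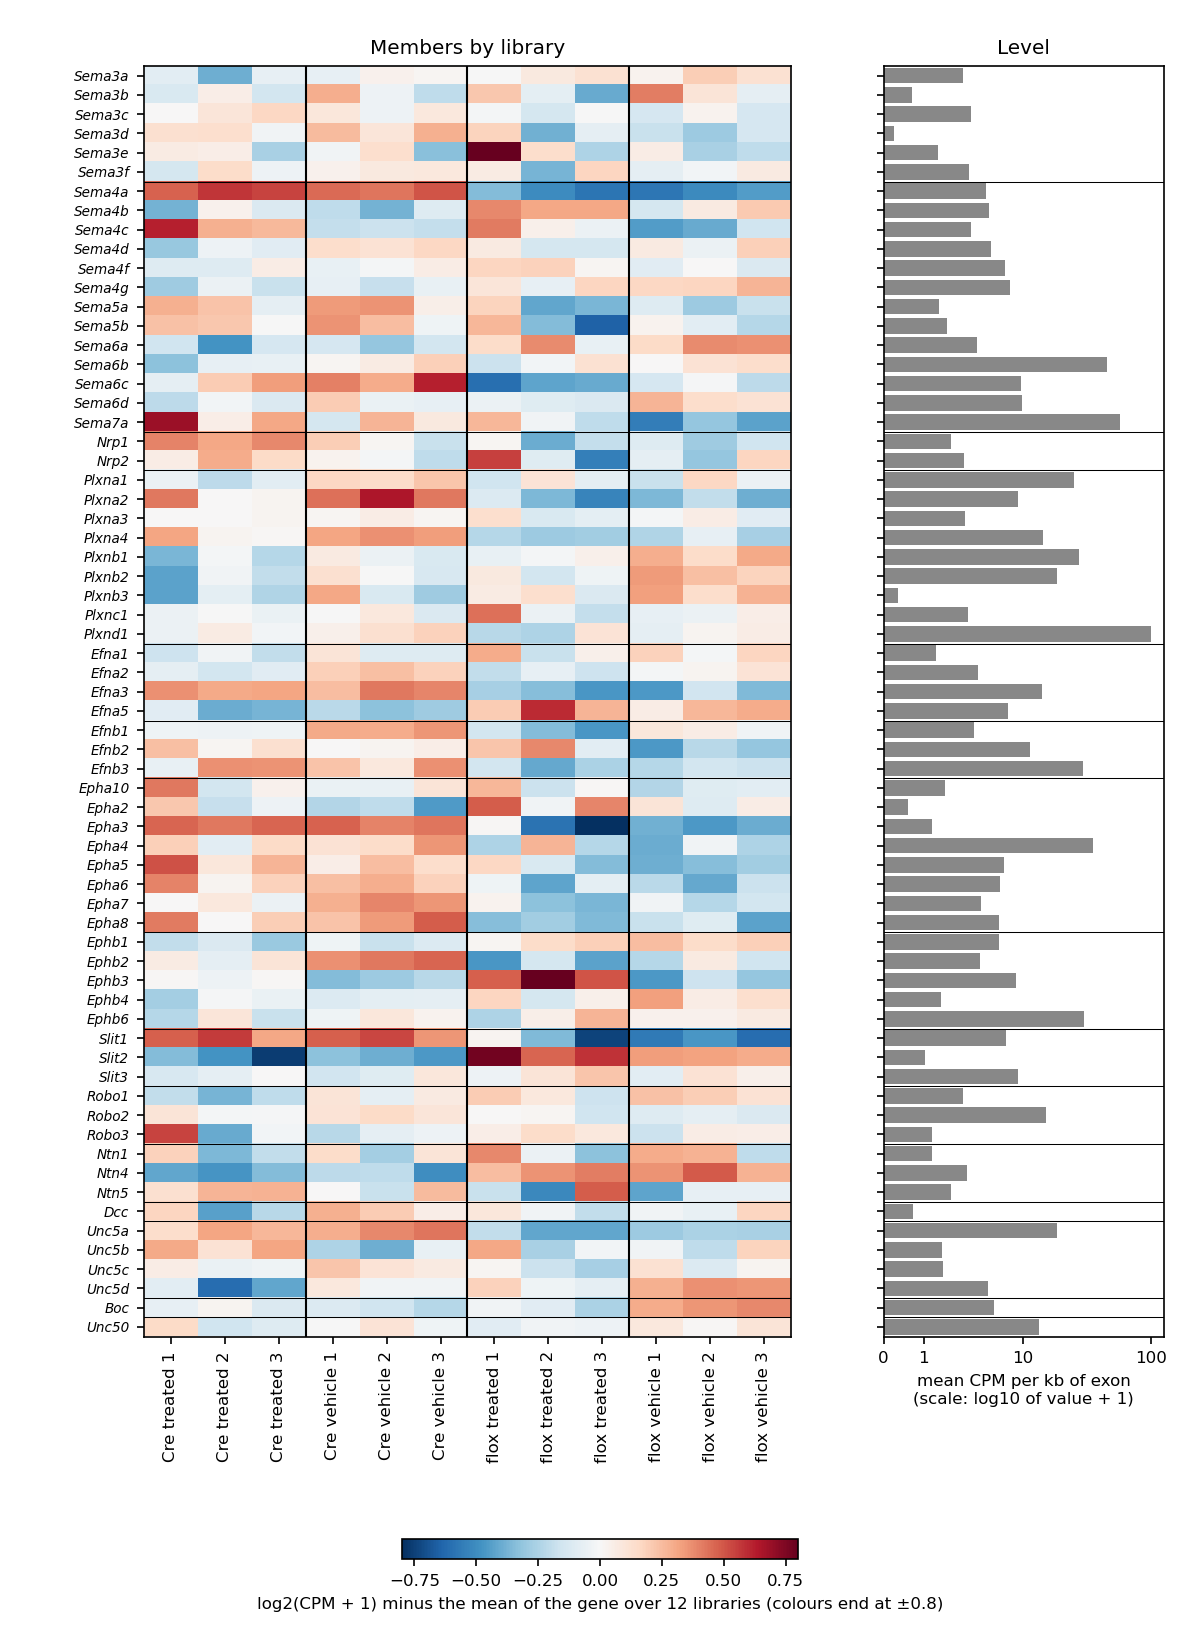
Heat map of the 66 genes (rows, grouped by family) in the 12 libraries (columns, in the order Cre treated, Cre vehicle, flox treated and flox vehicle), coloured by the log2 of CPM plus 1 minus the gene's mean over the libraries. Cre and flox columns differ for genes such as Sema4a, Slit1, Epha3, Slit2 and Ntn4, and Ephb3 is highest in the 3 flox treated libraries.

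The genotype comparison asked which guidance genes differ between slices labelled Cre and slices without Cre, at rest and after treatment. In vehicle slices 20 of the 66 genes were higher and 8 lower in the libraries labelled Cre, which is 42.4% of them against 19.3% of all 13048 genes tested. The threshold throughout is a limma adjusted p of 0.05 on log2(CPM + 1), adjusted over all tested genes. Among all tested genes 9.18% were higher and 10.1% lower. In treated slices 14 were higher and 9 lower, 34.8% of the 66 against 13.5% of all genes tested, of which 7.5% were higher and 5.95% lower. The median log2 difference of the 66 genes was 0.07 in vehicle and 0.03 in treated slices, against 0.00 and 0.02 over all tested genes, so the genes lay on both sides. The groups of 3 libraries did not overlap for 36 of the 66 genes in vehicle slices (54.5%, against 51.3% of all genes) and for 25 in treated slices (37.9%, against 25.5%).

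The vehicle and treated comparisons share no library, but 1 fit of all 12 libraries gives them the same estimate of spread for each gene. Their calls are therefore not independent, and whether they share animals is not known. In both, 18 genes passed, 13 higher and 5 lower, and none passed in opposite directions. These 18 are 64.3% of the vehicle calls and 78.3% of the treated calls. Across the 66 genes the log2 differences of both comparisons had a Pearson r of 0.88 and a Spearman coefficient of 0.86, a description across genes of these 12 libraries, and 53 of the 66 had the same sign. Neither the overlap of calls nor the share with the same sign was computed over all tested genes. These values therefore cannot be read as particular to the 66. With any 1 of the 6 libraries of a comparison left out, 16 of the 28 vehicle calls and 15 of the 23 treated calls still passed, and the genes that did not are named with those libraries below. All 16 of these vehicle calls and 12 of the 15 treated calls also passed under every other setting tried. Fitting only the 6 treated libraries ended 11 treated calls, those of Sema4b, Sema6a, Unc5d, Ephb1, Robo1, Efnb1, Ephb2, Plxna4, Epha6, Plxna2 and Efnb3, and left 8 genes higher and 4 lower in all, against 4.71% of all genes.

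**Figure D2:**
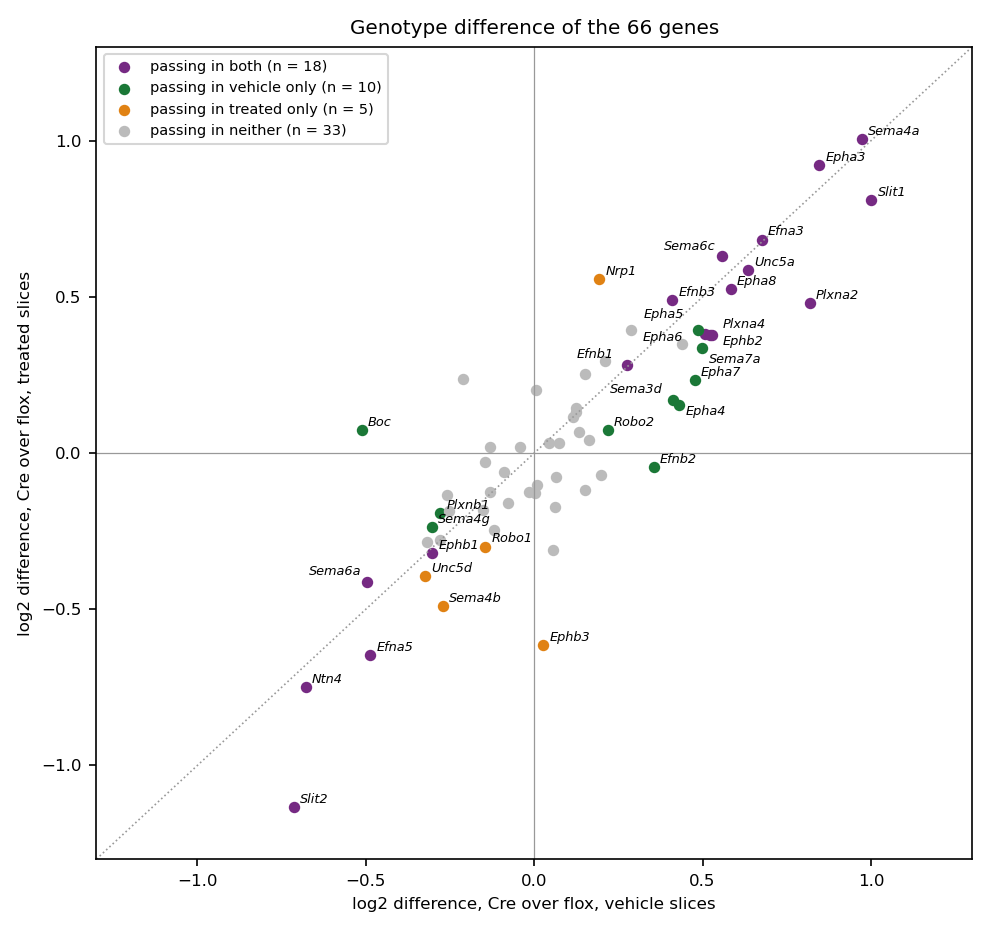
Each point is 1 of the 66 genes, placed by its log2 difference, Cre over flox, in vehicle slices (horizontal axis) and in treated slices (vertical axis), and coloured by where it passed the limma threshold of 0.05. The 18 genes that passed in both lie at the upper right and lower left, while Boc, Ephb3 and Efnb2 lie near 0 on 1 axis only.

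Some markers of cortical layers, hippocampal fields and cell classes moved with the genotype too. The 6 markers of hippocampal fields summed to 427 to 467 CPM in Cre vehicle and 267 to 289.7 CPM in flox vehicle slices, and to 431 to 475 CPM in Cre treated and 288 to 315 CPM in flox treated slices, and 3 of the 5 tested were higher in both comparisons. The 4 layer 4 markers summed to 66.1 to 77.2 CPM in Cre vehicle and 113 to 123.4 CPM in flox vehicle slices, and to 64.5 to 93.5 CPM in Cre treated and 103 to 148 CPM in flox treated slices, with 3 lower in vehicle and 2 in treated slices. Of 5 markers of excitatory neurons 3 were higher in vehicle and 2 in treated slices, of 6 layer 2/3 markers 1 was higher in each and 4 and 3 were lower, and of 4 astrocyte markers 2 and 1 were lower. Of 5 layer 5 markers 1 was lower in vehicle and 2 in treated slices, and they summed to 137 to 146 CPM in Cre vehicle and 164 to 176 CPM in flox vehicle slices, and to 142 to 151 CPM in Cre treated and 177 to 225 CPM in flox treated slices. In vehicle slices 1 of 3 interneuron markers was higher, with sums of 429 to 438 CPM in Cre and 349 to 364 CPM in flox libraries, and 1 of 2 markers of oligodendrocyte precursors was lower, with sums of 7.61 to 9.14 CPM in Cre and 11.1 to 12.7 CPM in flox libraries. The summed excitatory markers ranged over 2079 to 2269 CPM in Cre vehicle and 1987 to 2064 CPM in flox vehicle slices, and over 1785 to 2329 CPM in Cre treated and 1827 to 2068 CPM in flox treated slices. The astrocyte markers ranged over 10036 to 11292 CPM in Cre vehicle and 12637 to 14483 CPM in flox vehicle slices, and over 9234 to 11299.7 CPM in Cre treated and 11415 to 11636 CPM in flox treated slices. No marker passed in either comparison among those of layer 6 neurons (5 tested), oligodendrocytes (2) and microglia (3). The same held for endothelium (3), mural cells and fibroblasts (4) and choroid plexus and ependyma (1). None of the markers was at 0 in all libraries of a group. The part of these markers in the genotype differences was not tested, and in slices fewer cells of a type and less RNA per cell cannot be told apart.

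Among the semaphorins, 4 of 19 were higher and 2 lower in vehicle slices, and 2 were higher and 2 lower in treated slices. Sema4a, a transmembrane semaphorin on chromosome 3, 88435959 to 88461182, minus strand, had the largest difference among them. In vehicle slices Sema4a had 33.7, 33.2 and 34.9 CPM in Cre libraries, against 15.99, 16.8 and 17.6 CPM in flox libraries. Treated slices had 34.1, 36.7 and 35.9 CPM of Sema4a in Cre libraries, against 18.9, 16.9 and 15.9 CPM in flox libraries. The lowest of the 6 Cre libraries lies far above the highest of the 6 flox libraries. Sema4a was higher by 0.97 (SE 0.07, limma adjusted p = 6.01e-06) on the log2 scale in vehicle and by 1.01 (SE 0.07, limma adjusted p = 4.85e-06) in treated slices.

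Sema6c, a transmembrane ligand of plexin-As, was also higher in both. Cre treated libraries had 52.8, 64.3 and 70.2 CPM of Sema6c, against 36.3, 41.2 and 41.7 CPM in flox treated libraries, a log2 difference of 0.63 (SE 0.11, limma adjusted p = 0.00254). Means in vehicle slices were 76.1 ± 9.15 CPM in Cre and 51.2 ± 3.76 CPM in flox libraries (SD, n = 3 each), with a difference of 0.56 (SE 0.11, limma adjusted p = 0.00499). The lowest Cre library stood above the highest flox library within each treatment. Its relative Sema6a was lower instead. Sema6a had 31.6, 27.9 and 31.3 CPM in Cre vehicle libraries, against 38.7, 45.5 and 45.2 CPM in flox vehicle libraries, and fell by 0.50 on the log2 scale (SE 0.12, limma adjusted p = 0.0142). In treated slices the difference of Sema6a was -0.41 (limma adjusted p = 0.0392). The vehicle call was lost without Cre vehicle replicate 2 or flox vehicle replicate 3 (limma adjusted p = 0.0562 to 0.0657), and the treated call without Cre treated replicate 2 or 3 or flox treated replicate 1 or 2 (limma adjusted p = 0.0523 to 0.149).

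Sema4b was lower in treated slices, with 21.7, 29.2 and 26.3 CPM in Cre libraries, against 37.6, 35.5 and 35.6 CPM in flox libraries. The groups do not overlap, with a log2 difference of -0.49 (SE 0.11, limma adjusted p = 0.0131), against -0.27 (limma adjusted p = 0.109) in vehicle slices, which did not pass. Sema7a, which binds plexin-C1 and integrins, was higher in vehicle slices by 0.50 (limma adjusted p = 0.0457). Sema4g was lower there, with a log2 difference of -0.30 (limma adjusted p = 0.0188), and Sema3d, the least expressed of the 66 genes, was higher by 0.41 (limma adjusted p = 0.0397). These calls did not hold throughout. Sema7a was lost without Cre vehicle replicate 2 or 3 or flox vehicle replicate 1, 2 or 3 (limma adjusted p = 0.0624 to 0.169), Sema4g without Cre vehicle replicate 2 or flox vehicle replicate 3 (limma adjusted p = 0.0771 to 0.0802) and Sema3d without any 1 of the 6 libraries (limma adjusted p = 0.0638 to 0.124). In treated slices their differences, 0.34, -0.24 and 0.17, did not pass. No other class 3 semaphorin passed in either comparison.

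Among the semaphorin receptors, 2 of 4 plexin-As, the receptors shared by class 6 semaphorins and neuropilins, were higher in both comparisons. Plxna2 had 205, 236 and 202 CPM in Cre vehicle libraries, against 117, 131 and 114.7 CPM in flox vehicle libraries. All Cre values lie well above the flox values, with a log2 difference of 0.82 (SE 0.12, limma adjusted p = 0.00103). In treated slices Plxna2 averaged 169 ± 29.0 CPM in Cre and 120.4 ± 17.9 CPM in flox libraries (SD, n = 3 each), a difference of 0.48 (limma adjusted p = 0.0239) that was lost without Cre treated replicate 1 or flox treated replicate 2 or 3 (limma adjusted p = 0.0748 to 0.0933). Plxna4 averaged 254 ± 4.70 CPM in Cre vehicle and 176 ± 13.6 CPM in flox vehicle slices, and 219 ± 27.4 CPM in Cre treated and 167 ± 3.86 CPM in flox treated slices (SD, n = 3 each), with differences of 0.53 (limma adjusted p = 0.00107) and 0.38 (limma adjusted p = 0.00863). Neither Plxna1 nor Plxna3 passed. Plxnb1, a receptor of Sema4d, was lower in vehicle slices, with a log2 difference of -0.28 (limma adjusted p = 0.04) that was lost without Cre vehicle replicate 2 or 3 or flox vehicle replicate 1 or 3 (limma adjusted p = 0.11 to 0.141). Nrp1, the neuropilin that binds Sema3a, passed in treated slices with 27.6 ± 0.964 CPM in Cre and 18.6 ± 2.77 CPM in flox libraries (SD, n = 3 each), a log2 difference of 0.56 (limma adjusted p = 0.00555), and had 0.19 (limma adjusted p = 0.237) in vehicle slices. Nrp2 passed in neither comparison.

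The EphA receptors had the largest share of calls in vehicle slices of any family with more than 3 genes. There 6 of 8 were higher and none lower, with a median log2 difference of 0.48, and in treated slices 3 were higher and none lower, with a median of 0.31. Epha3, an EphA receptor on chromosome 16, 63543534 to 63864175, minus strand, stood apart most clearly. In vehicle slices Epha3 had 15.2, 14.4 and 14.7 CPM in Cre libraries, against 7.92, 7.50 and 7.87 CPM in flox libraries. Treated slices had 15.1, 14.6 and 15.1 CPM of Epha3 in Cre libraries, against 10.7, 6.74 and 5.57 CPM in flox libraries. The 6 Cre libraries were close together, while flox treated replicate 1 was above the other flox libraries and still below every Cre library. Epha3 was higher by 0.85 (SE 0.15, limma adjusted p = 0.00317) on the log2 scale in vehicle and by 0.92 (SE 0.15, limma adjusted p = 0.00191) in treated slices.

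Epha8 averaged 37.5 ± 3.45 CPM in Cre vehicle and 24.7 ± 3.02 CPM in flox vehicle slices, and 33.9 ± 5.002 CPM in Cre treated and 23.1 ± 0.683 CPM in flox treated slices (SD, n = 3 each). It was higher by 0.58 (limma adjusted p = 0.00403) and by 0.53 (limma adjusted p = 0.00795) on the log2 scale. Epha6 was higher by 0.51 (limma adjusted p = 0.00992) in vehicle and by 0.38 (limma adjusted p = 0.0452) in treated slices, the second of which was lost without Cre treated replicate 1 or 3 or flox treated replicate 2 or 3 (limma adjusted p = 0.0582 to 0.162). Epha7, Epha5 and Epha4 passed in vehicle slices alone, with differences of 0.48 (limma adjusted p = 0.00526), 0.49 (limma adjusted p = 0.0181) and 0.43 (limma adjusted p = 0.0481). In treated slices their differences were 0.23, 0.39 and 0.15. The interaction, the treatment change in Cre slices minus that in flox slices, did not pass for any of them. Epha7 held whichever library was left out. Epha5 was lost without Cre vehicle replicate 2 or 3 or flox vehicle replicate 1 (limma adjusted p = 0.0556 to 0.0765) and Epha4 without Cre vehicle replicate 1, 2 or 3 or flox vehicle replicate 1 or 3 (limma adjusted p = 0.0724 to 0.187).

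The EphB receptors, which bind ephrin-Bs at excitatory synapses, went in both directions. Ephb2 was higher in the libraries labelled Cre by 0.52 (limma adjusted p = 0.00346) in vehicle and by 0.38 (limma adjusted p = 0.022) in treated slices, with means of 70.3 ± 2.53 CPM in Cre vehicle and 48.8 ± 5.58 CPM in flox vehicle slices (SD, n = 3 each). The treated call of Ephb2 was lost without Cre treated replicate 1 or 3 or flox treated replicate 1 or 3 (limma adjusted p = 0.056 to 0.0859). Ephb1 was lower, with log2 differences of -0.30 (limma adjusted p = 0.0109) in vehicle and -0.32 (limma adjusted p = 0.00904) in treated slices, and its vehicle call was lost without Cre vehicle replicate 2 or flox vehicle replicate 1 (limma adjusted p = 0.0531 to 0.0554). Ephb3 differed in treated slices, with 56.6, 54.6 and 56.6 CPM in Cre libraries, against 78.7, 101.2 and 80.2 CPM in flox libraries. These groups are far apart, with a log2 difference of -0.61 (SE 0.10, limma adjusted p = 0.00126). In vehicle slices Ephb3 overlapped, with 44.0, 45.7 and 48.1 CPM in Cre libraries, against 40.5, 49.9 and 45.1 CPM in flox libraries, and a difference of 0.03 (limma adjusted p = 0.867). Ephb4 and Ephb6 did not pass.

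On the ligand side, Efna3 was higher and Efna5 lower in both comparisons. In vehicle slices Efna3 had 40.1, 45.3 and 44.3 CPM in Cre libraries, against 24.2, 30.1 and 26.1 CPM in flox libraries. After treatment there were 43.5, 41.6 and 42.1 CPM of Efna3 in Cre libraries, against 27.8, 26.4 and 24.0 CPM in flox libraries. No flox library reached a Cre library, and Efna3 was higher by 0.68 (SE 0.08, limma adjusted p = 0.000256) and by 0.68 (SE 0.08, limma adjusted p = 0.000253) on the log2 scale. Of the exons of Efna3 14.1% lie antisense to Gm15998, and the strand setting of the counting is not known from the sources used here, so reads of that stretch may belong to either gene. Efna5, a ligand of several EphA receptors, ran the other way. In vehicle slices Efna5 had 25.2, 23.2 and 24.0 CPM in Cre libraries, against 30.7, 35.7 and 36.5 CPM in flox libraries. Treated slices had 27.6, 22.1 and 22.5 CPM of Efna5 in Cre libraries, against 34.0, 45.1 and 35.8 CPM in flox libraries. Every Cre library was below every flox library of its treatment, and the log2 differences were -0.49 (SE 0.11, limma adjusted p = 0.0111) and -0.65 (SE 0.11, limma adjusted p = 0.00234). Neither Efna1 nor Efna2 passed.

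All 3 ephrin-Bs were higher in vehicle slices and 2 in treated slices. Efnb3 was higher by 0.41 (limma adjusted p = 0.0252) and by 0.49 (limma adjusted p = 0.0126), and averaged 111 ± 10.9 CPM in Cre vehicle and 83.4 ± 2.56 CPM in flox vehicle slices (SD, n = 3 each). Efnb1 was higher by 0.27 (limma adjusted p = 0.0306) and by 0.28 (limma adjusted p = 0.0327), and Efnb2 by 0.36 (limma adjusted p = 0.0352) in vehicle slices, with -0.04 (limma adjusted p = 0.823) in treated slices. None of these vehicle calls held throughout. Efnb3 was lost without Cre vehicle replicate 1 or 3 or flox vehicle replicate 1, 2 or 3 (limma adjusted p = 0.0505 to 0.104), Efnb1 without any 1 of the 6 libraries (limma adjusted p = 0.064 to 0.111) and Efnb2 without Cre vehicle replicate 1, 2 or 3 or flox vehicle replicate 1 or 3 (limma adjusted p = 0.0735 to 0.146). The treated call of Efnb3 was lost without Cre treated replicate 3 or flox treated replicate 2 (limma adjusted p = 0.0575 to 0.0587), and that of Efnb1 without Cre treated replicate 1 or 3 or flox treated replicate 2 or 3 (limma adjusted p = 0.0656 to 0.124).

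The Slits, whose products repel axons through Robos, held the largest difference in each direction in vehicle slices. Slit1, on chromosome 19, 41600257 to 41743665, minus strand, had 56.6, 58.9 and 52.0 CPM in Cre vehicle libraries, against 27.0, 29.0 and 26.2 CPM in flox vehicle libraries. After treatment Slit1 had 56.7, 60.1 and 50.4 CPM in Cre libraries, against 41.0, 31.4 and 23.8 CPM in flox libraries. Values of the flox treated libraries were spread widely, and the highest of them was still below the lowest Cre library. Slit1 was higher by 1.00 (SE 0.15, limma adjusted p = 0.000778) on the log2 scale in vehicle and by 0.81 (SE 0.15, limma adjusted p = 0.00306) in treated slices. Slit2, on chromosome 5, 47983138 to 48307733, plus strand, was lower instead. In vehicle slices Slit2 had 19.6, 18.7 and 17.8 CPM in Cre libraries, against 31.7, 31.4 and 30.9 CPM in flox libraries. Treated slices had 19.3, 17.6 and 14.3 CPM of Slit2 in Cre libraries, against 43.2, 34.8 and 37.6 CPM in flox libraries. All 6 Cre libraries were below all 6 flox libraries, with log2 differences of -0.71 (SE 0.10, limma adjusted p = 0.000656) and -1.13 (SE 0.10, limma adjusted p = 2.28e-05). Slit3, the best expressed Slit, did not pass, with -0.08 (limma adjusted p = 0.552) in vehicle and -0.16 (limma adjusted p = 0.242) in treated slices.

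Their receptors differed little. Robo2 was higher in vehicle slices by 0.22 (limma adjusted p = 0.0231), and Robo1 was lower in treated slices, with a log2 difference of -0.30 (limma adjusted p = 0.0489). The Robo2 call was lost without Cre vehicle replicate 1, 2 or 3 or flox vehicle replicate 1 or 3 (limma adjusted p = 0.0556 to 0.0844) and the Robo1 call without Cre treated replicate 1, 2 or 3 or flox treated replicate 1 or 2 (limma adjusted p = 0.0626 to 0.135). Robo3 did not pass.

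Of the 3 netrins only Ntn4, which acts through laminins and the basement membrane more than through Dcc, passed. In vehicle slices Ntn4 had 9.92, 9.93 and 7.92 CPM in Cre libraries, against 15.1, 16.7 and 14.3 CPM in flox libraries. Treated slices had 8.46, 8.08 and 8.89 CPM of Ntn4 in Cre libraries, against 14.0, 15.1 and 15.8 CPM in flox libraries. The 6 Cre libraries were all below the 6 flox libraries, and the log2 differences were -0.68 (SE 0.09, limma adjusted p = 0.000504) and -0.75 (SE 0.09, limma adjusted p = 0.000257). Unc5a, the netrin receptor with the highest level, averaged 98.6 ± 4.73 CPM in Cre vehicle and 63.1 ± 0.807 CPM in flox vehicle slices, and 90.4 ± 5.59 CPM in Cre treated and 60.0 ± 5.46 CPM in flox treated slices (SD, n = 3 each). It was higher by 0.64 (limma adjusted p = 0.000119) and by 0.59 (limma adjusted p = 0.000238) on the log2 scale. Unc5d was lower in treated slices, with a log2 difference of -0.39 (limma adjusted p = 0.0358) that was lost without Cre treated replicate 2 or 3 or flox treated replicate 1 or 2 (limma adjusted p = 0.0693 to 0.112). Dcc, with 10.01 ± 0.894 CPM in Cre vehicle and 8.91 ± 0.885 CPM in flox vehicle slices (SD, n = 3 each), did not pass, and neither did Ntn1, its classical ligand.

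Boc had 23.2, 22.4 and 21.3 CPM in Cre vehicle libraries, against 31.1, 32.3 and 33.2 CPM in flox vehicle libraries. Flox vehicle libraries stood clearly above the others, with a log2 difference of -0.51 (SE 0.07, limma adjusted p = 0.000544). In treated slices Boc had 23.9, 25.5 and 23.1 CPM in Cre libraries, against 24.6, 23.5 and 20.9 CPM in flox libraries, which overlap, and the difference was 0.07 (limma adjusted p = 0.541).

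**Figure D3:**
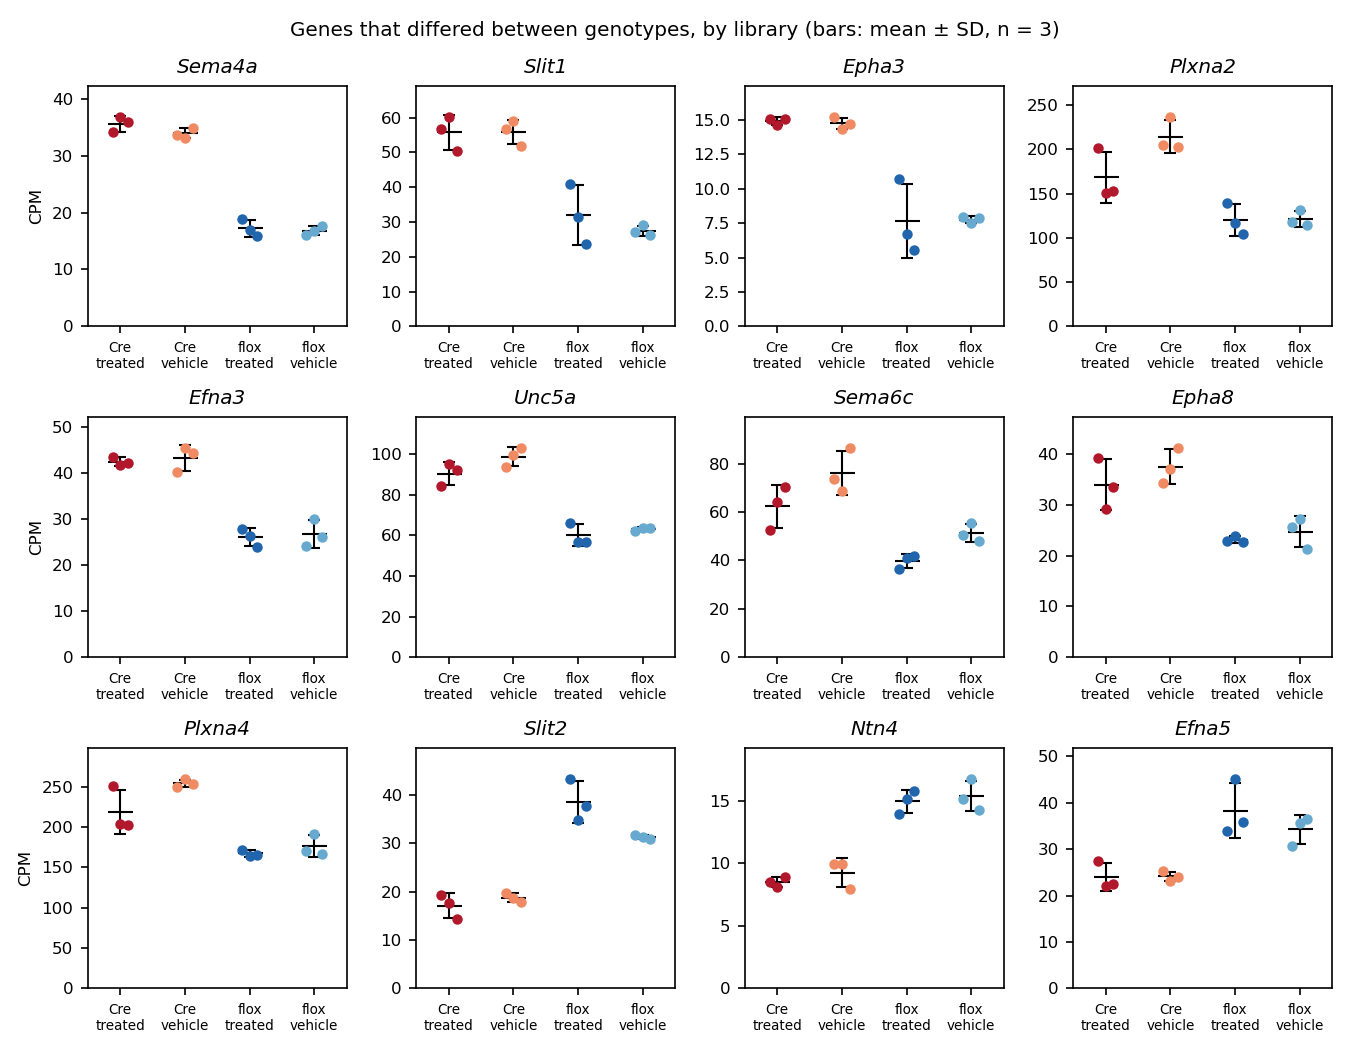
CPM of 12 genes by library (points) in Cre treated, Cre vehicle, flox treated and flox vehicle slices, with the mean and SD of 3 libraries as bars. Sema4a, Slit1, Epha3, Plxna2, Efna3, Unc5a, Sema6c, Epha8 and Plxna4 are higher, and Slit2, Ntn4 and Efna5 lower, in the libraries labelled Cre of either treatment.

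The treatment comparison asked which guidance genes change with picrotoxin and 4-aminopyridine. Few did. In Cre slices 2 of the 66 genes rose and 7 fell, 13.6% of them against 14.1% of all genes tested, and in flox slices 3 rose and 3 fell, 9.09% against 12.6%. Among all tested genes 3.79% rose and 10.3% fell in Cre slices, and 3.24% rose and 9.34% fell in flox slices. The shares of the 66 genes are near this background. Groups did not overlap for 17 genes in each genotype (25.8%, against 29.4% of all genes in Cre and 33.0% in flox slices). The median log2 change of the 66 genes was -0.08 in Cre and -0.04 in flox slices, against -0.03 and -0.06 over all tested genes. Of all passing genes 27.0% were higher in Cre and 25.8% in flox slices, and with median-ratio scaling these shares were 38.7% and 47.7%. Under that scaling 3 of the 66 genes rose and 5 fell in Cre slices, and 6 rose and 2 fell in flox slices. Sema4c and Efnb1 passed in both genotypes, Sema4c higher and Efnb1 lower, and no gene passed in opposite directions.

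Upstream sequences of Ephb3, Efnb2, Sema4c, Efnb1, Sema4d and Sema6d are shown because these genes moved with the treatment and hold a motif of activity-regulated transcription factors in the 250 bases before the start. Sequences are from RefSeq (GRCm38.p6), 5′ to 3′ on the strand of the gene and ending at the base before the start. Capitals mark TGACG or its complement CGTCA, the core of the cyclic AMP response element TGACGTCA, for Ephb3, Efnb2 and Efnb1, and TGANTCA, the AP-1 motif bound by Fos and Jun proteins, for Sema4c. In Sema4d they mark an AP-1 motif and then a CArG box, bound by serum response factor, and in Sema6d a MEF2 motif. The windows lie at chr16:21204545-21204794 on the plus strand for Ephb3, chr8:8661243-8661492 on the minus strand for Efnb2, chr1:36558382-36558631 on the minus strand for Sema4c (1 of 2 windows of that gene), chrX:99135811-99136060 on the plus strand for Efnb1, chr13:51748811-51749060 on the minus strand for Sema4d (1 of 3 windows) and chr2:124089719-124089968 on the plus strand for Sema6d (1 of 2 windows).
Ephb3: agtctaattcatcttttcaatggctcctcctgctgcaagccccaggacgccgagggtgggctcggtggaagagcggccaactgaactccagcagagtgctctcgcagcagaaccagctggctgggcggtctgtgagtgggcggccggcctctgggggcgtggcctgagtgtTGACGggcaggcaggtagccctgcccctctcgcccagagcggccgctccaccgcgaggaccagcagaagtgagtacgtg
Efnb2: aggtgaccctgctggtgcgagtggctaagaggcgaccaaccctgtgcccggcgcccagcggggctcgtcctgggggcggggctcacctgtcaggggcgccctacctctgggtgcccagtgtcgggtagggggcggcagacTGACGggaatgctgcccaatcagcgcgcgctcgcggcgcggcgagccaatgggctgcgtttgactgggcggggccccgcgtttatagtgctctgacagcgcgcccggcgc
Sema4c: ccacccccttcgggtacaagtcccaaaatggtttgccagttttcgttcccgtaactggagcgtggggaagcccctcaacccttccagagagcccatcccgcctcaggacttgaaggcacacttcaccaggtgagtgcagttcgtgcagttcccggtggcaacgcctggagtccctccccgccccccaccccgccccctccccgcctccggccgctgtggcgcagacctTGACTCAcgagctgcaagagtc
Efnb1: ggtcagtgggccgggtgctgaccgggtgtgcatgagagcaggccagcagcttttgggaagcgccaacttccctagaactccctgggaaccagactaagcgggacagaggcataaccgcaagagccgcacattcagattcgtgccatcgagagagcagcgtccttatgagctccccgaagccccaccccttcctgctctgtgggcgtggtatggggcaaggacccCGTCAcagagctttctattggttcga
Sema4d: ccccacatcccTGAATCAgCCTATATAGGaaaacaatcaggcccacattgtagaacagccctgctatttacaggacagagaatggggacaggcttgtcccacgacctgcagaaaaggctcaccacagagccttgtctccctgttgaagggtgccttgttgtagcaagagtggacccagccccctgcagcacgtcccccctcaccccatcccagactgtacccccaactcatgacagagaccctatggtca
Sema6d: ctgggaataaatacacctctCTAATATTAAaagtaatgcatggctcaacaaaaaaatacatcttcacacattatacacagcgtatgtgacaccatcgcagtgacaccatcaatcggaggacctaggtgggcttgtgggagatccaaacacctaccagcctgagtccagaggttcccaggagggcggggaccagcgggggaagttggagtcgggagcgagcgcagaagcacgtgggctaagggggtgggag

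The matches begin 79 bases before the start of Ephb3, 110 before that of Efnb2, 22 before that of Sema4c, 26 before that of Efnb1, 239 and 231 before that of Sema4d and 230 before that of Sema6d. Both strands were searched, and a full element also counts as a core. Of all 32851 RefSeq windows 17.8% hold the core, against 9.86% of the 71 windows of the 55 genes of the set that have one. AP-1 motifs are in 6.75% of all windows and in 3 of the 71, and the full response element in 1.55% and in 1. The MEF2 motif is in 2.92% of all windows and in 1 of the 71, and the CArG box in 1.47% and in 2. Of the 13 genes that passed with treatment 10 have a window, and 6 of these hold a match, 3 of the 4 that rose and 3 of the 6 that fell. The share of all genes that hold any of these motifs was not computed, so these counts cannot be read as an excess. A match describes these letters and is not a bound site.

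Ephb3, an EphB receptor on chromosome 16, 21204755 to 21223305, plus strand, changed most. Flox treated libraries had 78.7, 101.2 and 80.2 CPM, against 40.5, 49.9 and 45.1 CPM in flox vehicle libraries. All 3 treated libraries stood far above the vehicle libraries, and Ephb3 rose by 0.92 (SE 0.10, limma adjusted p = 4.3e-05) on the log2 scale. In Cre slices Ephb3 had 56.6, 54.6 and 56.6 CPM in treated libraries, against 44.0, 45.7 and 48.1 CPM in vehicle libraries, a change of 0.28 (SE 0.10, limma adjusted p = 0.0782). With the replicate block within genotype, which takes same-numbered libraries as pairs, Ephb3 passed there (limma adjusted p = 0.0218). Whether these libraries are pairs is not known.

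Efnb2, a transmembrane ligand of EphB receptors and Epha4, rose in flox slices. Efnb2 had 89.8, 100.8 and 72.4 CPM in flox treated libraries, against 55.6, 65.8 and 62.0 CPM in flox vehicle libraries, and the groups do not overlap. The log2 change was 0.50 (SE 0.11, limma adjusted p = 0.0073), against 0.10 (limma adjusted p = 0.624) in Cre slices. Sema4c, a ligand of plexin-B2, rose in both genotypes. Cre treated libraries had 24.8, 19.4 and 19.1 CPM of Sema4c, against 13.7, 13.9 and 13.7 CPM in Cre vehicle libraries. In flox slices Sema4c had 21.4, 16.2 and 15.2 CPM in treated libraries, against 11.3, 11.7 and 14.0 CPM in vehicle libraries. Treated libraries were above vehicle libraries without overlap, with log2 changes of 0.57 (SE 0.13, limma adjusted p = 0.0093) in Cre and 0.47 (SE 0.13, limma adjusted p = 0.0307) in flox slices. The flox call was lost without flox treated replicate 1 or flox vehicle replicate 1 or 2 (limma adjusted p = 0.0972 to 0.127). Of the exons of Sema4c 7.27% lie antisense to D430040D24Rik, whose reads cannot be told apart without strand.

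Efnb1 fell in both genotypes. In Cre slices Efnb1 had 12.4, 12.4 and 12.4 CPM in treated libraries, against 15.9, 15.8 and 16.5 CPM in vehicle libraries. Flox treated libraries had 11.4, 9.77 and 8.94 CPM of Efnb1, against 13.6, 13.3 and 12.4 CPM in flox vehicle libraries. Every treated library was below every vehicle library of its genotype, and the log2 changes were -0.35 (SE 0.08, limma adjusted p = 0.00919) and -0.36 (SE 0.08, limma adjusted p = 0.00944). Of the 3 ephrin-Bs, which share EphB receptors, Efnb3 did not pass, with -0.01 (limma adjusted p = 0.985) in Cre and -0.09 (limma adjusted p = 0.66) in flox slices.

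Boc fell in flox slices, with 24.6, 23.5 and 20.9 CPM in treated libraries, against 31.1, 32.3 and 33.2 CPM in vehicle libraries. No treated library reached a vehicle library, and the log2 change was -0.47 (SE 0.07, limma adjusted p = 0.000672), against 0.11 (limma adjusted p = 0.363) in Cre slices. Sema6d, a transmembrane semaphorin that binds Plxna1, had 101.03, 97.3 and 96.1 CPM in flox treated libraries, against 126, 115.2 and 113 CPM in flox vehicle libraries. The groups do not overlap but lie close, and the change was -0.26 (SE 0.08, limma adjusted p = 0.0487). It was lost without any 1 of the 6 libraries (limma adjusted p = 0.067 to 0.196), and it did not pass with edgeR or DESeq2 on the recovered reads.

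In Cre slices Unc5b, a netrin receptor also found on endothelium, rose to 13.5, 11.7 and 13.6 CPM in treated libraries, against 8.89, 7.97 and 10.3 CPM in vehicle libraries. The groups are separate, and the log2 change of Unc5b was 0.48 (SE 0.14, limma adjusted p = 0.0437). Ephb2 had 54.7, 49.8 and 56.4 CPM in Cre treated libraries, against 67.7, 70.4 and 72.8 CPM in Cre vehicle libraries, and Unc5d had 42.7, 29.4 and 33.7 CPM, against 48.1, 44.5 and 44.3 CPM. Both were lower in each treated library than in any vehicle library, with log2 changes of -0.39 (limma adjusted p = 0.0176) for Ephb2 and -0.38 (limma adjusted p = 0.0408) for Unc5d. The call of Unc5b was lost without Cre treated replicate 1 or 3 or Cre vehicle replicate 1 or 2 (limma adjusted p = 0.0876 to 0.162), that of Ephb2 without Cre treated replicate 2 or Cre vehicle replicate 2 or 3 (limma adjusted p = 0.0529 to 0.0687) and that of Unc5d without Cre treated replicate 2 or 3 or Cre vehicle replicate 1, 2 or 3 (limma adjusted p = 0.0833 to 0.148).

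Epha7 had 42.7, 45.3 and 41.3 CPM in Cre treated libraries, against 52.2, 56.3 and 54.8 CPM in Cre vehicle libraries. Efna2, an ephrin-A, had 8.25, 7.78 and 8.12 CPM in Cre treated libraries, against 10.1, 10.5 and 10.01 CPM in Cre vehicle libraries. Neither gene's groups overlap, and the changes were -0.33 (SE 0.10, limma adjusted p = 0.0362) for Epha7 and -0.30 (SE 0.07, limma adjusted p = 0.00843) for Efna2. Plxna1 and Sema4d, the ligand of Plxnb1, fell by smaller amounts, with -0.29 (limma adjusted p = 0.0496) and -0.29 (limma adjusted p = 0.0467). Efna2 held whichever library was left out. Epha7 was lost without Cre treated replicate 1 or 3 or Cre vehicle replicate 1, 2 or 3 (limma adjusted p = 0.0619 to 0.123), Plxna1 without Cre treated replicate 2 or 3 or Cre vehicle replicate 1, 2 or 3 (limma adjusted p = 0.0987 to 0.146) and Sema4d without Cre treated replicate 1 or 3 or Cre vehicle replicate 1, 2 or 3 (limma adjusted p = 0.079 to 0.13). Neither Plxna1 nor Sema4d passed with edgeR or DESeq2 on the recovered reads. Of the exons of Plxna1 10.7% lie antisense to Gm26811.

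With the replicate block within genotype, 4 of the 66 genes rose and 8 fell in Cre slices, 18.2% of them against 13.0% of all tested genes. Besides Ephb3, Nrp1 (0.35, limma adjusted p = 0.0315 with the block and 0.0522 without), Robo1 (-0.29, limma adjusted p = 0.0209 with the block and 0.0518 without) and Sema6b (-0.24, limma adjusted p = 0.0378 with the block and 0.104 without) passed. Sema4d did not pass with the block (limma adjusted p = 0.0657).

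Some markers of other cells and of neuron classes also moved with the treatment. Cx3cr1 of microglia and Pdgfrb of mural cells were lower in both genotypes, with log2 changes of -0.51 and -0.66 in Cre and -0.66 and -0.60 in flox slices, which is 1 of 3 microglial and 1 of 4 mural cell and fibroblast markers in each. The microglial markers summed to 48.2 to 56.7 CPM in Cre treated and 62.8 to 85.0 CPM in Cre vehicle slices, and to 54.5 to 64.6 CPM in flox treated and 80.4 to 97.01 CPM in flox vehicle slices. Those of mural cells and fibroblasts summed to 74.9 to 94.2 CPM in Cre treated and 81.2 to 100.3 CPM in Cre vehicle slices, and to 76.0 to 104 CPM in flox treated and 88.1 to 163 CPM in flox vehicle slices. In flox slices 1 of 3 endothelial markers, Kdr, fell by 0.49 on the log2 scale (limma adjusted p = 0.0167), and the endothelial sum was 18.3 to 30.4 CPM in flox treated and 27.6 to 37.9 CPM in flox vehicle slices, against 22.4 to 25.8 CPM in Cre treated and 20.2 to 26.3 CPM in Cre vehicle slices. Of the markers of oligodendrocyte precursors 1 of 2 fell in flox slices, with sums of 7.34 to 9.41 CPM in flox treated and 11.1 to 12.7 CPM in flox vehicle slices. Among neurons, 2 of 5 excitatory markers rose in flox slices, 1 of 5 layer 5 markers rose in Cre and 2 in flox slices, 1 of 5 hippocampal markers rose in each, and 1 of 6 layer 2/3 markers fell in flox slices. The part of these markers in the changes of the guidance genes was not tested.

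**Figure D4:**
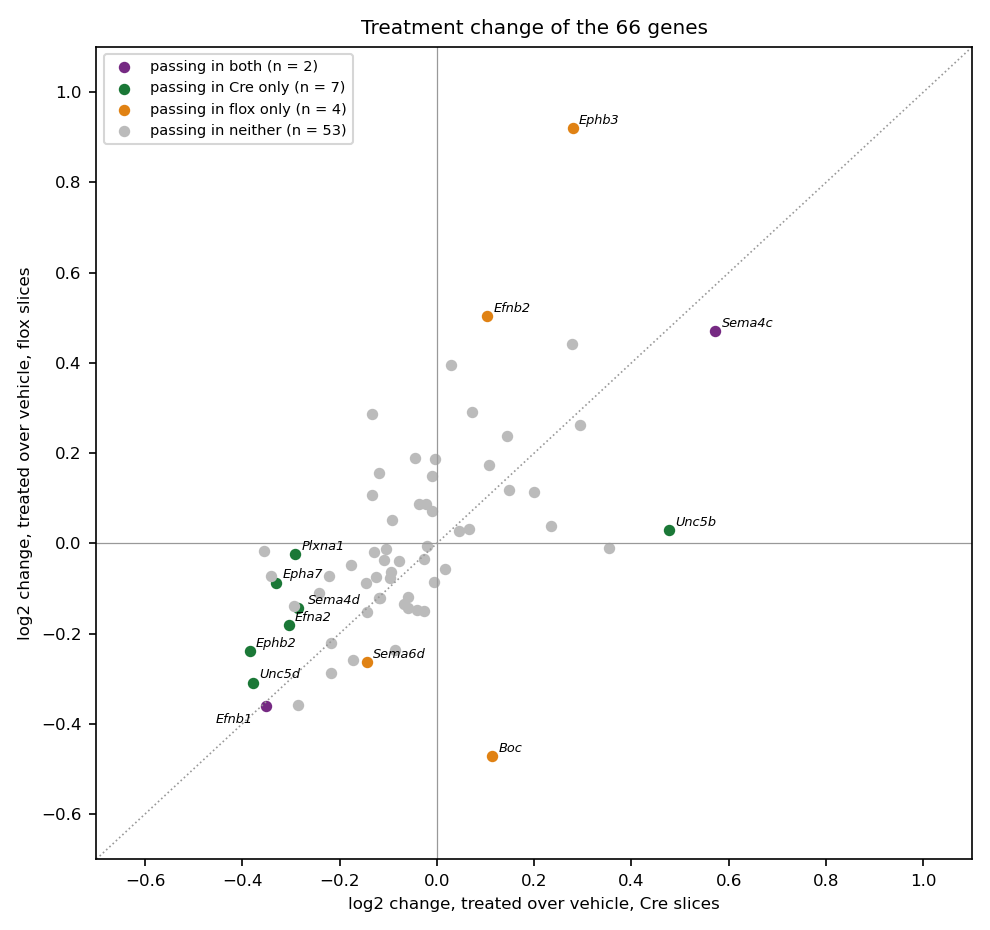
Each point is 1 of the 66 genes, placed by its log2 change, treated over vehicle, in Cre slices (horizontal axis) and in flox slices (vertical axis), and coloured by where it passed the limma threshold of 0.05. Sema4c and Efnb1 passed in both genotypes, and Ephb3 has the largest change, 0.92 in flox slices.

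**Figure D5:**
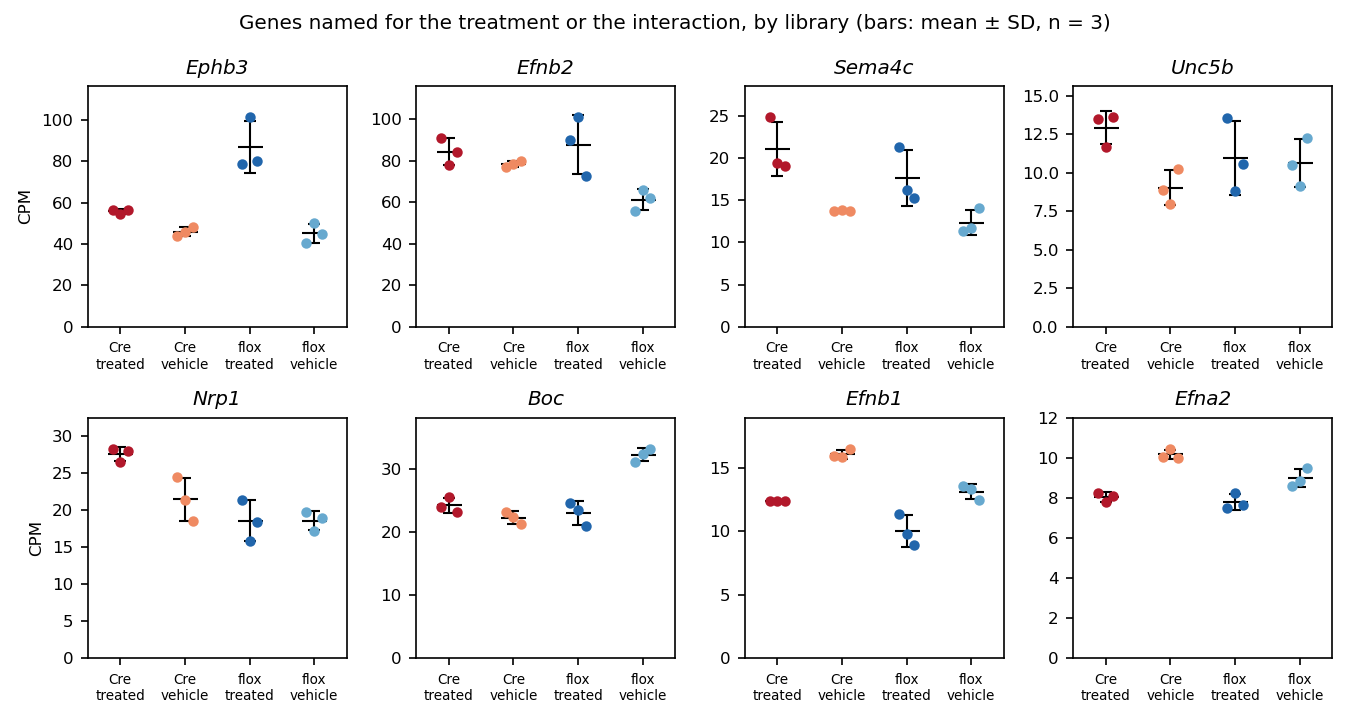
CPM by library (points) of genes named for the treatment or the interaction, in Cre treated, Cre vehicle, flox treated and flox vehicle slices, with the mean and SD of 3 libraries as bars. Ephb3 is highest in flox treated slices, Efnb2 is higher in flox treated than in flox vehicle slices and overlaps between both treated groups, Boc is highest in flox vehicle slices, and Sema4c and Efnb1 shift the same way in both genotypes.

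The interaction, the treatment change in Cre slices minus that in flox slices, passed for none of the 66 genes with limma, while 3 of all 13048 genes passed (0.023%). At an unadjusted p under 0.05 there were 7 of the 66 genes, beside 568 of all tested genes (4.35%). On the recovered reads edgeR called none of the 66, and DESeq2 called 2, Boc and Ephb3. That is 3.03% of the 66, beside 42 of all tested genes with DESeq2 (0.322%). The 5 genes with the smallest p with limma were Boc, Ephb3, Slit2, Efnb2 and Sema4f. Boc had an interaction of 0.59 (SE 0.10, limma adjusted p = 0.168), with a fall in flox slices and a change that did not pass in Cre slices. Ephb3 had -0.64 (SE 0.14, limma adjusted p = 0.341), with the larger rise in flox slices. Slit2 had -0.42 (SE 0.14, limma adjusted p = 0.988), with treatment changes of -0.13 in Cre and 0.29 in flox slices. Efnb2 had -0.40 (SE 0.15, limma adjusted p = 0.988). Sema4f, a transmembrane semaphorin that passed in no comparison, had -0.23 (SE 0.10, limma adjusted p = 0.988) and means of 36.0 ± 2.42 CPM in Cre treated and 37.2 ± 1.55 CPM in Cre vehicle slices, and 40.7 ± 2.65 CPM in flox treated and 35.6 ± 1.56 CPM in flox vehicle slices (SD, n = 3 each). The differences between genotypes or treatments that passed on 1 side only, such as those of Nrp1, with an interaction of 0.36 (limma adjusted p = 0.988), and Unc5b, with 0.45 (limma adjusted p = 0.988), are therefore not shown to differ between the sides.

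Over the 5 comparisons 39 of the 66 genes passed at least once, 33 between genotypes, 13 with treatment and 7 with both. The matching shares of all tested genes were not computed, so these counts cannot be read as an excess. The 27 that never passed include 5 of the 6 class 3 semaphorins and 2 of the 3 netrins. They are Sema3a, Sema3b, Sema3c, Sema3e and Sema3f, Nrp2, Ntn1 and Ntn5, Dcc, Unc5c, Slit3 and Robo3, further Sema4f, Sema5a, Sema5b and Sema6b, Plxna3, Plxnb2, Plxnb3, Plxnc1 and Plxnd1, Efna1, Epha2, Epha10, Ephb4 and Ephb6, and Unc50. For 23.4% of the exons of Ntn5 there is an antisense gene, Sec1. A p above the threshold does not show that these genes were equal.

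Guidance genes outside the 66 were taken from lists. Of 54 genes that carry guidance signals inside the cell (among them collapsin response mediators, kinases and actin regulators), 11 were higher and 8 lower in Cre vehicle against flox vehicle slices, with a median log2 difference of 0.02, and 8 were higher and 3 lower in treated slices, with a median of 0.04. Over all tested genes 9.18% were higher and 10.1% lower in vehicle slices, and 7.5% and 5.95% in treated slices. Mical2, an actin oxidase of the family that acts below plexins, was higher by 0.93 (limma adjusted p = 0.000154) and by 0.86 (limma adjusted p = 0.000288). Srgap1 and Srgap2, GTPase-activating proteins that bind Robos, were higher by 0.41 and 0.39 in vehicle and by 0.46 and 0.29 in treated slices. Tiam1, a Rac activator, was lower, with log2 differences of -0.51 (limma adjusted p = 0.000172) and -0.39 (limma adjusted p = 0.00101). With treatment 6 of the 54 fell in Cre slices and 8 in flox slices, and none rose. Over all tested genes 10.3% fell and 3.79% rose in Cre slices, and 9.34% fell and 3.24% rose in flox slices, shares that depend on the scaling. Tiam1 fell by 0.34 in Cre and by 0.45 in flox slices, Dpysl2, the mediator of Sema3a-driven collapse, by 0.44 and 0.57, and the kinase gene Abl1 by 0.41 and 0.32, all on the log2 scale and all past the limma threshold.

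Of 38 other ligands, receptors and coreceptors tested, 7 were higher and 7 lower between genotypes in vehicle slices, and 6 were higher and 7 lower in treated slices. Ntng2, a membrane-anchored netrin relative that binds Lrrc4, was higher by 1.08 (limma adjusted p = 0.000185) and by 1.16 (limma adjusted p = 0.000126). Flrt3, a ligand of Unc5 receptors, was lower, with log2 differences of -0.56 (limma adjusted p = 0.000875) and -0.63 (limma adjusted p = 0.000419), and Flrt2 was lower in treated slices, with -0.73 (limma adjusted p = 0.000268). Nell2, a ligand of Robo3, was higher by 0.43 in vehicle slices. With treatment 1 rose and 6 fell in Cre slices, and 1 rose and 4 fell in flox slices. Over all tested genes 19.3% passed between genotypes in vehicle and 13.5% in treated slices. With treatment 14.1% of all tested genes passed in Cre and 12.6% in flox slices. Lrrc4 rose by 0.35 and 0.36, Lrrc4b fell by 0.52 and 0.52, and Vangl2, a planar polarity protein of growth cones, fell by 0.38 and 0.31 on the log2 scale.

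Of 13 inhibitors of growth from myelin and matrix and their receptors, 3 were higher and 4 lower in vehicle slices, and 3 higher and 2 lower in treated slices. Tnr, a matrix protein of perineuronal nets, was higher by 0.59 (limma adjusted p = 0.000104) and by 0.44 (limma adjusted p = 0.000808), Ngfr by 0.57 and 0.69, and the Nogo receptor relative Rtn4rl2 by 0.45 and 0.75. With treatment 3 rose and 1 fell in Cre slices, and 1 rose and 1 fell in flox slices. Rtn4r, the Nogo receptor, fell by 0.59 in Cre and by 0.51 in flox slices, while Rtn4rl2 rose by 0.58 and 0.28. Of 7 proteases that shed ephrins or guidance receptors, Bace1 and Adam10 were higher in Cre vehicle slices, by 0.41 (limma adjusted p = 0.00222) and 0.33 (limma adjusted p = 0.0146), and lower in Cre treated than in Cre vehicle slices, with log2 changes of -0.30 (limma adjusted p = 0.0122) and -0.27 (limma adjusted p = 0.0462). None of the 7 passed in the treated genotype comparison or with treatment in flox slices. The shares of all tested genes that passed, for these lists too, were 19.3% and 13.5% between genotypes in vehicle and treated slices. They were 14.1% and 12.6% with treatment in Cre and flox slices.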

How the data were processed

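Polyadenylated RNA of 12 slice libraries was sequenced as paired reads of 150 bases, per the labels. Per the submitters' processing notes FastQC, Trimmomatic, STAR, DESeq2 and mm10 were used; versions, counting tool, annotation and the use of strand are not known from the sources used here. The deposited table holds CPM made by the authors, which sums to 1000000 in each library. Column names WT and KO were taken as the flox and Cre labels. Values were whole multiples of 1 read within 0.001 of a read, so reads could be recovered (100% of values), and alternatives used them. No 2 replicates were copies.

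The 13048 genes whose mean reached 1 CPM were tested as log2 of CPM plus 1, which understates changes of low genes, with limma 3.58.1 in R 4.3.3 (4-group means model, intensity trend, robust moderation). P-values are two-sided and adjusted by Benjamini-Hochberg over all tested genes in each of 5 comparisons. Simulated data were used to test the scripts. Levels were divided by GENCODE M21 exon length. Precision is limited by 3 libraries a group, not by depth; a count of 0 allows at most 3 reads, for counting error only.

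The 66 genes and all lists were chosen with earlier results of these data known. Named genes are those that passed, with every library's value for the 5 largest rises and falls of a comparison whose groups do not overlap, the best expressed of each family, the 5 smallest interaction p and up to 4 passing genes per list. Genes given to complete a comparison were chosen after their values were seen. Same-numbered Cre treated and vehicle libraries had deviations correlated at 0.167, 0.135 and 0.476. Same-numbered Cre and flox libraries, which differ in genotype, had 0.359, -0.139 and 0.267 in treated slices. In vehicle slices they had 0.0228, -0.109 and 0.232. Differently numbered libraries were not correlated. These values therefore cannot show whether replicate numbers mark pairs, and the replicate block is only an alternative. Alternatives changed pseudocount (0.1 and 5), filter, scaling, moderation, libraries fitted, replicate block, array weights and test (edgeR 4.0.16, DESeq2 1.42.0), and left out each library.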

Additional observations from a re-analysis of the deposited data

How the results depend on the processing

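None of the 71 results for single genes turned its direction under any alternative, and of their 1327 alternative values 1138 stayed on the same side of the threshold, 184 lost the call and 5 gained it. The counts of genes that passed moved by more than 1.5 times in these cases. For treatment in Cre slices they were 1 higher and 3 lower with no filter on low values, 4 higher with the replicate block within genotype, 4 higher and 20 lower with array weights, 4 higher and 4 lower with edgeR and TMM, 4 lower with edgeR and DESeq2 size factors, and 4 higher with DESeq2, against 2 higher and 7 lower. For treatment in flox slices they were 6 higher with median-ratio scaling, 7 lower with only the 6 libraries compared, 5 higher and 8 lower with array weights, 5 higher with edgeR and TMM, 6 higher with edgeR and DESeq2 size factors, and 8 higher with DESeq2, against 3 and 3. For genotype in vehicle slices there were 13 lower with only the 6 libraries compared and 13 lower with array weights, against 8, and in treated slices 8 higher and 4 lower with only the 6 libraries compared, against 14 and 9. The interaction gave 1 higher and 2 lower with array weights, and 1 higher and 1 lower with DESeq2, against 0. Calls over all genes often moved as well. For treatment in Cre slices, 36.4% of the 66 genes and 34.0% of all genes passed with array weights. These shares were 6.06% and 9.18% with no filter, 18.2% and 13.0% with the block, and 12.1% and 13.9% with edgeR and TMM. With edgeR and DESeq2 size factors they were 10.6% and 14.2%, and with DESeq2 16.7% and 18.2%. For treatment in flox slices they were 12.1% and 12.8% with median-ratio scaling and 15.2% and 12.3% with only the 6 libraries. Array weights gave 19.7% and 23.2% there, and DESeq2 15.2% and 17.6%. In the same flox slices edgeR gave 10.6% and 12.3% with TMM, and 12.1% and 12.9% with DESeq2 size factors. For genotype with only the 6 libraries the shares were 53.0% and 38.2% in vehicle and 18.2% and 4.71% in treated slices. In vehicle slices array weights gave 53.0% and 39.0%. The interaction had 4.55% and 0.536% with array weights, and 3.03% and 0.322% with DESeq2. The cause of the shifts in calls was not tested.

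With each library left out in turn, the counts ranged over 1 to 2 higher and 2 to 8 lower for treatment in Cre slices, 2 to 5 higher and 2 to 3 lower for treatment in flox slices, 12 to 17 higher and 4 to 9 lower for genotype in vehicle slices, 10 to 19 higher and 6 to 9 lower for genotype in treated slices, and 0 for the interaction. Shares of the 66 genes were 4.55% to 13.6%, against 9.73% to 15.9% of all genes, for treatment in Cre slices. For treatment in flox slices they were 6.06% to 12.1% against 8.02% to 13.1%. For genotype they were 25.8% to 37.9% against 8.99% to 14.8% in vehicle slices. In treated slices they were 24.2% to 37.9% against 8.82% to 20.6%. In flox slices same-numbered treated and vehicle libraries had correlations of 0.0556, 0.411 and 0.0742, which cannot show whether they are pairs either. The replicate block within genotype gave 2 higher and 4 lower there, 9.09% of the 66 genes against 11.4% of all genes. This block can give no genotype comparison. A replicate block common to all groups gave 19 higher and 8 lower for genotype in vehicle slices and 14 higher and 8 lower in treated slices. These are 40.9% of the 66 genes against 19.7% of all genes in vehicle slices, and 33.3% against 14.2% in treated slices.

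The main limits are 3 libraries a group, unknown animals behind them, a targeted gene whose level goes against the label, and whole slices in which cell shares were not measured. Treated libraries were less alike than vehicle libraries, and the treatment counts depend on scaling.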
